A study of Homo sapiens with 6 samples.

Results

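The Agilent arrays of this series carry 9202 probes named XLOC_ followed by digits, here XLOC_0 probes, out of 50599 probes for cell RNA (18.2%). They were taken from the scanner files by name alone, with no use of signal, and they stand for 6932 loci that the array design lists as long intergenic noncoding RNAs. The RNA came from MOLT-4 cells, an established T-cell acute lymphoblastic leukaemia line, transfected with an empty vector (mock, 3 arrays) or with NUDT16 (3 arrays). From each sample 20 µg of total RNA entered an immunoprecipitation with an antibody against m3G and m7G caps, and the eluate was labelled with Cy3 and hybridised to a 1-colour array. The labels do not say whether the 3 samples of a group came from separate transfections, so p-values measure the spread between these arrays, which may be technical. Unprecipitated RNA was not analysed here, so less RNA of a transcript and fewer capped molecules of it cannot be told apart in any value below. The number of arrays limits the precision.

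Long intergenic noncoding RNAs are transcripts without a recognised open reading frame that lie between protein-coding genes. The XLOC numbers come from a catalogue assembled from RNA sequencing of many human tissues, and transcripts of the catalogue with less certain coding potential carry the related name XLOC_l2_. Like messenger RNAs, most of them are made by RNA polymerase II and receive a 7-methylguanosine cap, which protects the 5′ end and is removed by decapping enzymes such as NUDT16. They are known for low abundance and for expression restricted to few tissues. The comparison asks whether the amount of these transcripts in the cap eluate differs when NUDT16 is supplied.

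The probes are single 60-base spots spread over the genome (coordinates are hg19, as the array files give them). Chromosome 2 holds 907 of them, chromosome 1 holds 808 and chromosome 22 holds 153. A further 7 lie on unplaced contigs and 49 have no coordinates. By the order of the coordinates 4941 lie on the plus and 4212 on the minus strand. For 1338 probes the coordinates span more than 60 bases, as for a probe laid across a splice junction. Of the loci, 5512 have 1 probe, 927 have 2 and 493 have 3 or more, up to 12. No XLOC_0 probe carries a RefSeq messenger or noncoding RNA accession. The catalogue's own transcript names stand for 4982 of them and Ensembl transcripts for 2878. Whether a probe lies in an exon or intron of a neighbouring gene was not determined, since an hg19 annotation was not used here.

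Of the 8 loci of highest mean signal detected on every array, the probes of 7 are shown first, as examples. The sequence of the remaining one, XLOC_006775, is not shown, though its signal was not the lowest of the 8. The sequences are those of the array files, 5′ to 3′, with G and C in capitals, since detection followed base composition.
XLOC_003181 probe A_21_P0003290: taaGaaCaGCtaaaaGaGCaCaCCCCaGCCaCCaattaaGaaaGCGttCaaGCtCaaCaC
XLOC_012097 probe A_21_P0009377: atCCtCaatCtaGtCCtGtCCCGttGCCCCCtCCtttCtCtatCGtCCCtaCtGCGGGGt
XLOC_004774 probe A_21_P0004121: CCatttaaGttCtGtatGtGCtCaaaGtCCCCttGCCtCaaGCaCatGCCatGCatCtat
XLOC_012142 probe A_21_P0009382: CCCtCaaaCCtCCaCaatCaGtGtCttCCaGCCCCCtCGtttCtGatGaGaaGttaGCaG
XLOC_006513 probe A_21_P0005511: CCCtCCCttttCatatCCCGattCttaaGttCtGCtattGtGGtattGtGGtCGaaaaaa
XLOC_003849 probe A_21_P0003882: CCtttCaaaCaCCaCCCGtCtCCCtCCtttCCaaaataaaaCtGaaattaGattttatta
XLOC_008183 probe A_21_P0006537: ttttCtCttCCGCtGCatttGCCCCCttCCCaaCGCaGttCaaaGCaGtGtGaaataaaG

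Other probes of one locus share part of their letters. The first 5 are shown because only some of each set gave signal. The first 3 of them belong to XLOC_012142 and share 18 bases at the left side of a junction, in capitals.
XLOC_012142 probe A_21_P0009381: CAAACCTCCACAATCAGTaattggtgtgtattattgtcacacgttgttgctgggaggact
XLOC_012142 probe A_21_P0009382: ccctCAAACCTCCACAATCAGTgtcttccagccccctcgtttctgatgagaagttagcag
XLOC_012142 probe A_21_P0009383: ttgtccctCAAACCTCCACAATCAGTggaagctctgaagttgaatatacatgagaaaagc
The next 2 belong to XLOC_001265 and share the 40 bases in capitals.
XLOC_001265 probe A_21_P0001244: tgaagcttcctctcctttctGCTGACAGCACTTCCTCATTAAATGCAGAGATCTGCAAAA
XLOC_001265 probe A_21_P0001245: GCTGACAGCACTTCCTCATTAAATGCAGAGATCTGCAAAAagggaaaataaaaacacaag
The last 2 belong to XLOC_002730 and share 38 bases, also in capitals. They are shown because the array files place them on different chromosomes, and both were detected on all 6 arrays.
XLOC_002730 probe A_21_P0003244: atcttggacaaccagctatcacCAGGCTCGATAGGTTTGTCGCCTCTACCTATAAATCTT
XLOC_002730 probe A_21_P0003245: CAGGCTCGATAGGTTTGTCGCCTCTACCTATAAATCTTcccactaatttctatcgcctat

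The arrays differed in overall signal, and NUDT16 replicate 2 stood apart. Over the 6582 probes of any class that were well above background on all 6 arrays, the 75th percentile of the processed signal lay between 2701 and 7717 on the other 5 arrays and was 224 on NUDT16 replicate 2. Levels below are log2 signals relative to that percentile of the same array, and "detected" means called well above background by the scanner software. Of 16 T-lineage markers, between 11 (NUDT16 replicate 2) and 16 were detected per array. Of the other lists, B-lineage genes had 1 to 3 of 6 detected, with CD22, MS4A1 and PAX5 at background on all arrays. Of the genes with a probe, 0 to 2 of 5 myeloid, 0 to 2 of 3 erythroid and 1 to 3 of 5 epithelial markers were detected per array. The 2 NUDT16 probes were at background on all 6 arrays and did not check the transfection. A NUDT16P1 probe (A_21_P0012400) was at background on all mock arrays and detected on all NUDT16 arrays. Against the lowest detected level of each mock array the NUDT16 mean stood at least 31.7-fold higher (limma adjusted p 0.00155). The other NUDT16P1 probe, A_24_P626981, was at background on all 6 arrays.

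XLOC_0 probes were detected rarely, and less often than any class set beside them on each of the 6 arrays. Mock replicates 1, 2 and 3 detected 1532 (16.6%), 761 (8.27%) and 1724 (18.7%) of the 9202 probes. NUDT16 replicates 1, 2 and 3 detected 1008 (11.0%), 268 (2.91%) and 1764 (19.2%). The shares followed the array rather than the group: replicate 3 was highest and replicate 2 lowest in both groups. XLOC_l2_ probes lay between 6.04% and 29.5%, probes named LINC with a number between 9.65% and 35.96%, and messenger RNA probes (NM_ accessions) between 19.5% and 65.0%.

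**Figure D1:**
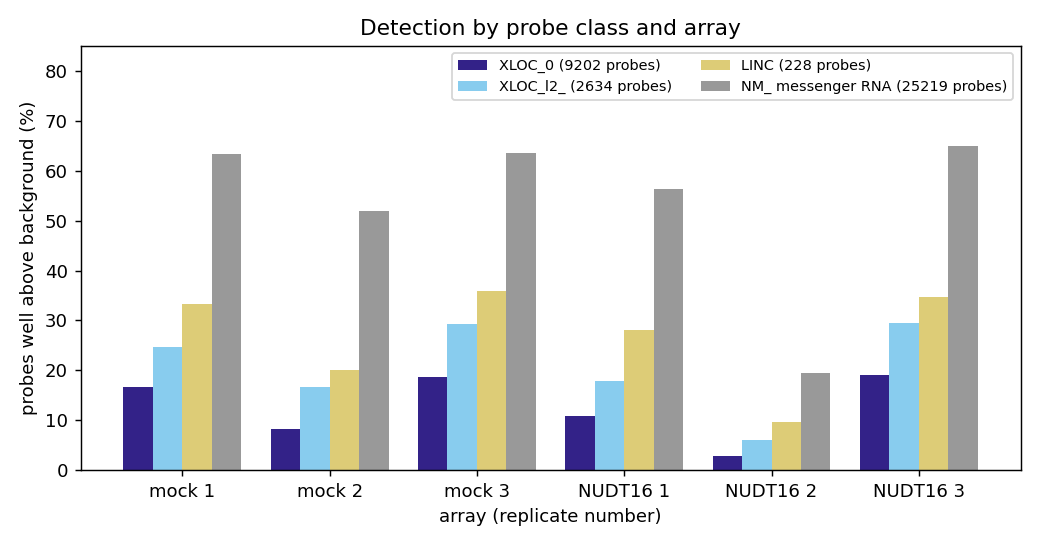
Share of probes well above background (percent, vertical axis) on each of the 6 arrays (horizontal axis) for 4 probe classes, 1 bar per class with no error bar because each is a count on 1 array. XLOC_0 bars are the lowest on all 6 arrays, from 2.91% on NUDT16 replicate 2 to 19.2% on NUDT16 replicate 3.

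Most of the catalogue's loci gave no signal in this eluate. No array detected 6718 of the XLOC_0 probes (73.0%). Exactly 1 array detected 857 of them, and all 6 arrays detected 171 (1.86%) from 162 loci. Detection on a single array was unevenly spread, with 217, 39 and 230 such probes on mock replicates 1, 2 and 3 and 99, 45 and 227 on NUDT16 replicates 1, 2 and 3. Same-numbered arrays shared much of what they detected. In replicate 3 both arrays detected 1435 probes, which is 83.2% of the mock set and 81.3% of the NUDT16 set. In replicate 1 the 879 shared probes were 57.4% of the mock set and 87.2% of the NUDT16 set, and in replicate 2 the 194 shared probes were 25.5% and 72.4%.

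Detection rose with the G and C content of the probe. To be tested, a probe had to be detected on every array of one group or of both, and 674 XLOC_0 probes (7.32%) of 595 loci passed, 668 of them through the mock group and 177 through the NUDT16 group. Of the XLOC_0 probes with at most 35% G and C, 2.93% passed. The share was 5.62% from 35 to 40%, 6.74% from 40 to 45%, 12.7% from 45 to 50%, 22.2% from 50 to 55% and 32.4% above 55%. Messenger RNA probes in the same ranges passed at 47.1% to 57.4% with no such order, and XLOC_l2_ probes at 8.60% to 43.9%. On single arrays detection of messenger RNA probes also rose with G and C, from 56.9% to 78.2% on mock replicate 1 and from 11.1% to 38.0% on NUDT16 replicate 2, where XLOC_0 probes rose from 6.97% to 54.3% and from 1.62% to 16.2%. The rise was thus not particular to XLOC_0 probes. The median probe held 41.7% G and C among XLOC_0 and 43.3% among messenger RNA probes, and 45% among the tested XLOC_0 probes.

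**Figure D2:**
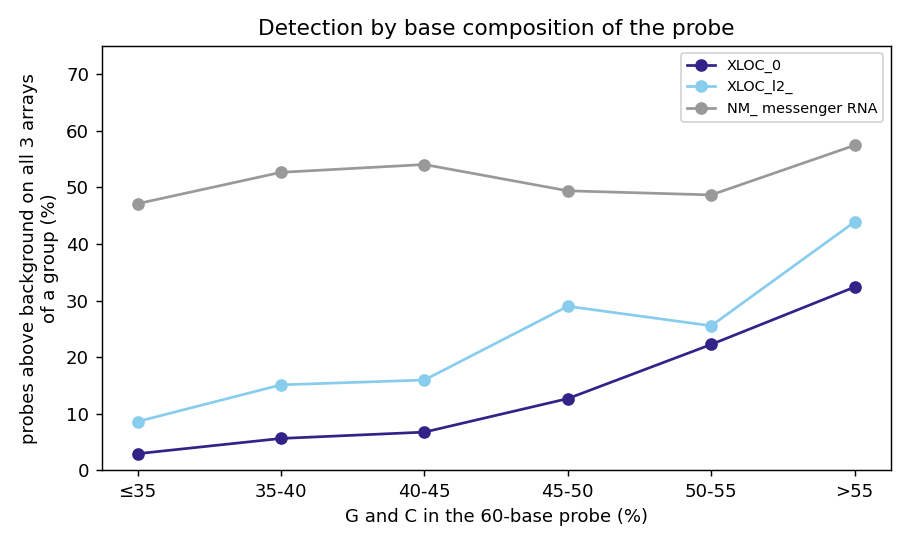
Share of probes detected on every array of one group or of both (percent, vertical axis) by G and C content of the probe (percent, horizontal axis, 6 ranges) for XLOC_0, XLOC_l2_ and messenger RNA probes, 1 point per class and range. The XLOC_0 line climbs from 2.93% to 32.4%, while the messenger RNA line stays between 47.1% and 57.4%.

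Position and transcript source went with smaller differences. XLOC_0 probes more than 100 kb from the nearest messenger RNA probe on the array passed in 5.30% of 4380 cases, those at 10 to 100 kb in 8.85% of 3911, and those at 1 to 10 kb in 10.4% of 811. Among probes with more than 45% G and C the same shares were 21.5%, 21.1% and 21.0%, and with at most 45% they were 4.12%, 6.68% and 7.80%. Only 46 probes lay within 1 kb, of which 8.70% passed (5.26% of the 38 with at most 45% G and C and 25% of the 8 with more). These were too few to say whether the share rose further at the shortest distance. These differences were not tested. By chromosome the share passing ran from 4.72% on chromosome 5 to 14.4% on chromosome 22, with chromosomes 17 and 19 at 12.1% and 11.6%. By transcript source, 6.50% of probes with the catalogue's own transcript names passed and 6.60% of those with Ensembl names. Names starting with THC passed at 11.2% and all other names at 12.4%. The strands were close, with 6.94% on plus and 7.72% on minus, and so were junction probes (6.65%) and probes within 60 bases (7.41%). The hexamer AATAAA, the usual polyadenylation signal, occurred in 8.18% of XLOC_0 probes and in 7.32% of messenger RNA probes, and its complement TTTATT in 3.89% and 3.93%. XLOC_0 probes with AATAAA passed in 7.30% of cases and those without it in 7.33%. Among probes with at most 45% G and C the shares were 6.94% and 5.39%, and for messenger RNA probes 50.4% and 51.7%. The difference was not tested. Of 143 probes annotated with similarity to Alu repeats, 18 passed (12.6%).

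Where a locus had a tested probe, its probes often disagreed. Of 1420 loci with several probes, 225 had a tested probe, of which 197 had only some of their probes tested and 28 had all. The remaining loci had none tested, and over all XLOC_0 probes 7.32% were tested. XLOC_012142 on the plus strand of chromosome 17 showed this most plainly among the loci of highest signal. Its junction probe A_21_P0009382 (chr17:20979250-20988112) gave 1.16, 1.08 and 0.999 in mock and 1.12, 2.60 and 0.54 in NUDT16 replicates 1, 2 and 3. The probes A_21_P0009381 and A_21_P0009163 were at background on all 6 arrays, and A_21_P0009383 was detected on NUDT16 replicate 3 only. The 3 junction probes printed above thus share their left side and differ in what follows it.

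XLOC_001265, on the minus strand of chromosome 1, behaved alike. Of its 6 probes, 2 were tested. A_21_P0001246 (chr1:235097187-235097246) gave -0.57, 0.23 and -0.11 in mock and -1.65, 0.16 and -0.37 in NUDT16. A_21_P0001244 gave -4.80, -6.28 and -4.83 in mock and -4.96, -5.54 and -4.92 in NUDT16, the NUDT16 replicate 2 value being at background. Its neighbour A_21_P0001245, which holds 40 of the same bases 20 bases further on, was at background on all 6 arrays. At XLOC_012097, A_21_P0009377 was detected on all arrays, and A_21_P0009376 (chr17:7311172-7311231) on 2 mock arrays and 1 NUDT16 array.

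The loci with most tested probes allowed their probes to be set side by side. XLOC_011117, on the minus strand of chromosome 14 (probes between 98399897 and 98435642), had 6 of 9 probes tested, and their NUDT16 minus mock differences ran from -0.44 to 0.34. XLOC_005126, on the plus strand of chromosome 6, had 6 of 7 tested, with differences from -0.93 to -0.19, all below 0. XLOC_014192, on the plus strand of chromosome 22, had 5 of 11 tested, from -0.42 to 0.26. XLOC_011535, on the minus strand of chromosome 15, had 4 of 4 tested, from -0.98 to -0.05. The -0.98 was that of A_21_P0008855, which shares 56 bases on the same strand with a probe of PEAK1. The XLOC_011535 locus is thus not the only candidate source of that value. Every difference at these loci had limma adjusted p 0.999, and the standard errors lay between 0.56 and 0.89. All 6 tested probes of XLOC_005126 were at background on NUDT16 replicate 2, and so were some at each of the other loci. Those values are not measured levels. Among the 56 loci with at least 2 tested probes, the probes of 39 had differences of 1 sign. Of the 56, 45 had exactly 2 tested probes. The probes share their arrays, and background values on NUDT16 replicate 2 enter these signs, so this is a description.

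Some XLOC_0 names covered more than one place. XLOC_003406 and XLOC_002995 each had tested probes placed on the plus strand of chromosome 3 near position 195363088, on the minus strand of chromosome 3 near position 197376410 and on the minus strand of chromosome 5 near position 1628947. XLOC_001680 had tested probes on chromosomes 19 and 2, and XLOC_013274 at 2 places of chromosome 19 on opposite strands. The differences of these 10 probes ran from -0.78 to 0.28, with limma adjusted p 0.999 for each. A stretch of at least 20 bases was shared with a probe of another class, on the same or the opposite strand, by 114 XLOC_0 probes, of which 21 were tested (18.4%), so the named locus is not the only candidate source of their signal.

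The tested probes of highest mean signal differed between the groups by less than their standard errors, except XLOC_003849. XLOC_003181 (A_21_P0003290, chr3:96336533-96336826, minus strand) gave 2.95, 3.98 and 3.95 in mock and 2.51, 4.12 and 3.45 in NUDT16 replicates 1, 2 and 3, a difference of -0.27 (SE 0.65). The groups overlapped throughout. XLOC_012097 (A_21_P0009377, chr17:7308628-7308687, plus strand) gave 1.95, 2.47 and 2.002 in mock and 1.80, 5.02 and 1.53 in NUDT16, a difference of 0.65 (SE 0.86). Its NUDT16 replicate 2 value was the highest of the 6 and the other 2 NUDT16 values the lowest. XLOC_004774 (chr5:33519991-33520050, minus strand) gave 1.27, 1.97 and 1.04 in mock and 0.95, 3.25 and 0.70 in NUDT16, the same arrangement.

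XLOC_006775, on chromosome 8, gave 1.30, 1.79 and 1.65 in mock and 0.79, 1.78 and 1.57 in NUDT16, lower in each pair. XLOC_006513 (chr7:84568800-84568859, minus strand) gave 0.55, 0.01 and -0.78 in mock and 0.92, 0.86 and -0.55 in NUDT16. XLOC_008183 (chrX:70940588-70940647, plus strand) gave 0.25, -0.60 and -0.73 in mock and 0.46, 0.35 and -0.56 in NUDT16. Both were higher in NUDT16 in each of the 3 same-numbered pairs, by 0.48 (SE 0.66) and 0.44 (SE 0.62) on average. The limma adjusted p was 0.999 for all 8 loci of this rule.

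No XLOC_0 probe passed the test between NUDT16 and mock in the comparison of all 6 arrays, where the median standard error of their differences was 0.67. Of the 674 tested, 0 had a limma adjusted p under 0.05, and the smallest adjusted p was 0.999 (unadjusted 0.077), so 0 had an unadjusted p under 0.05 either. Over all 17765 tested probes, 1 was called (0.00563%), the NUDT16P1 probe, and 8 had an unadjusted p under 0.05 (0.045%). With the replicate number as a block 0 XLOC_0 probes were called (smallest adjusted p 0.467). The blocked fit gave 22 an unadjusted p under 0.05, 4 higher and 18 lower, against 0.816% higher and 8.94% lower over all tested probes. Without NUDT16 replicate 2, 0 XLOC_0 probes were called.

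The sizes of the differences leaned upward. The median difference of the tested XLOC_0 probes was 0.15, against -0.11 over all tested probes, -0.15 over messenger RNA probes, -0.14 over XLOC_l2_ probes and 0.11 over LINC probes. At least 2-fold, 33 XLOC_0 probes were higher and 6 lower, against 1.29% and 7.05% of all tested probes. By replicate, the median difference of the XLOC_0 probes was -0.31, 0.93 and -0.21, with -0.36, 0.09 and -0.06 over all tested probes. The upward lean was thus in replicate 2, and in replicates 1 and 3 the medians lay below 0. Without NUDT16 replicate 2 the median of the XLOC_0 probes was -0.19, and that of all tested probes -0.16.

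On NUDT16 replicate 2 most XLOC_0 values were background values. Of the 674 tested probes, 488 were not detected there. The lowest level at which any probe was detected was -3.52 on that array and between -8.07 and -7.05 on the other 5. XLOC_0 probes at background had a median level of -5.72 there and between -10.19 and -9.09 elsewhere, whereas the medians of the tested XLOC_0 probes lay between -5.72 and -4.91 on the other arrays and at -4.55 on it. A scaled background value on that array therefore lies at the level where tested XLOC_0 probes lie on the others. Among the 171 probes detected on all 6 arrays, 139 had their highest level on NUDT16 replicate 2, and 149 had their lowest unscaled signal there. Their median difference in replicate 2 was 1.60, with 0.35 over the 6582 probes of all classes detected on every array, and -0.19 and -0.23 in replicates 1 and 3. No probe was detected below -3.52 on NUDT16 replicate 2, so a probe dim on the other arrays entered these 171 only if it was high there. The count of 139 and the median of 1.60 are therefore partly set by the filter and are a description.

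**Figure D3:**
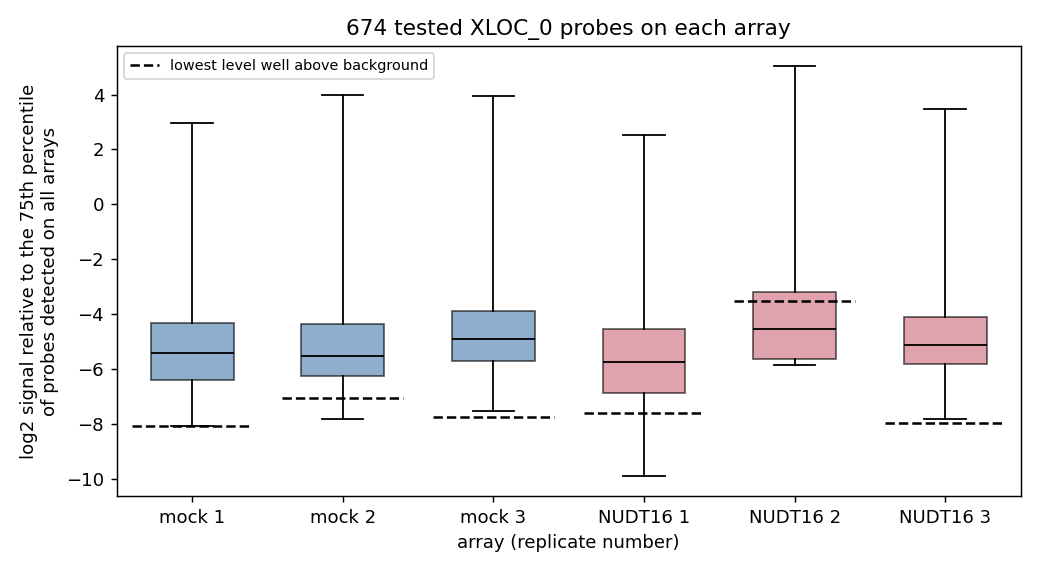
Levels of the 674 tested XLOC_0 probes (log2 signal relative to the 75th percentile of probes detected on all arrays, vertical axis) on each array, with boxes from the lower to the upper quartile, a line at the median and whiskers to the extremes. The dashed line is the lowest detected level of the array, which lies at -3.52 on NUDT16 replicate 2, above the median of -4.55 there, and below the lower quartile on the other 5 arrays.

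Among the 171 probes detected on all 6 arrays none had groups that did not overlap, and 5 of the 6 with the smallest p on the higher side rested on NUDT16 replicate 2. On the higher side, XLOC_002730 (A_21_P0003242, chr3:96336291-96336350, plus strand) gave -7.65, -5.46 and -7.11 in mock and -6.79, -0.03 and -6.97 in NUDT16, a difference of 2.14 (SE 1.49). XLOC_007094, on chromosome 8, gave -6.79, -5.71 and -6.13 in mock and -6.93, -1.82 and -5.31 in NUDT16, a difference of 1.52 (SE 1.05). XLOC_004127 (chr4:153128588-153128647, minus strand) gave -5.44, -6.77 and -5.003 in mock and -5.51, -1.89 and -5.45 in NUDT16, a difference of 1.46 (SE 0.94). In all 3 the NUDT16 replicate 2 value stood above the highest mock value by more than 3 units, and the other NUDT16 values lay within or near the mock range. Probes this dim on the other arrays were among the 171 only because they were high on NUDT16 replicate 2, so the filter favours this arrangement. Without NUDT16 replicate 2 the difference at XLOC_002730 was -0.14.

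At XLOC_002133 and XLOC_009677, with differences of 1.25 (SE 0.95) and 1.12 (SE 0.78), the NUDT16 replicate 2 value was again the highest of the 6. XLOC_005110 (chr5:180257150-180257209, minus strand) differed from them. It gave -1.98, -3.49 and -3.51 in mock and -1.34, -2.02 and -2.87 in NUDT16, higher in each pair, a difference of 0.92 (SE 0.68). The limma adjusted p was 0.999 for each of the 6.

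On the lower side, XLOC_005517 (A_21_P0004696, chr6:158733328-158733387, plus strand) gave -1.65, 0.06 and 0.87 in mock and -2.79, -2.75 and 0.51 in NUDT16, a difference of -1.44 (SE 0.95). XLOC_003849 (chr4:1282952-1283011, minus strand) gave 0.12, -0.10 and 1.47 in mock and -0.85, -1.42 and 1.15 in NUDT16, a difference of -0.87 (SE 0.77). XLOC_008225 (chrX:119358289-119374131, minus strand) gave -2.85, -0.59 and -0.92 in mock and -3.74, -2.14 and -1.004 in NUDT16, a difference of -0.84 (SE 0.83). XLOC_008047 (chrX:113220327-113220386, plus strand) differed by -0.56 (SE 0.74). All 4 were lower in each pair, while the replicates of a group spread over more than the difference between the groups. In the blocked fit the standard errors of the 4 fell to between 0.32 and 0.49, and the limma adjusted p to between 0.467 and 0.485. Without NUDT16 replicate 1 the difference was -0.12 at XLOC_008225, and without mock replicate 3 it was -0.0080 at XLOC_008047. XLOC_001265 and XLOC_004165, the latter without coordinates, had -0.47 each (SE 0.65 and 0.72), and the limma adjusted p was 0.999 for all 6.

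**Figure D4:**
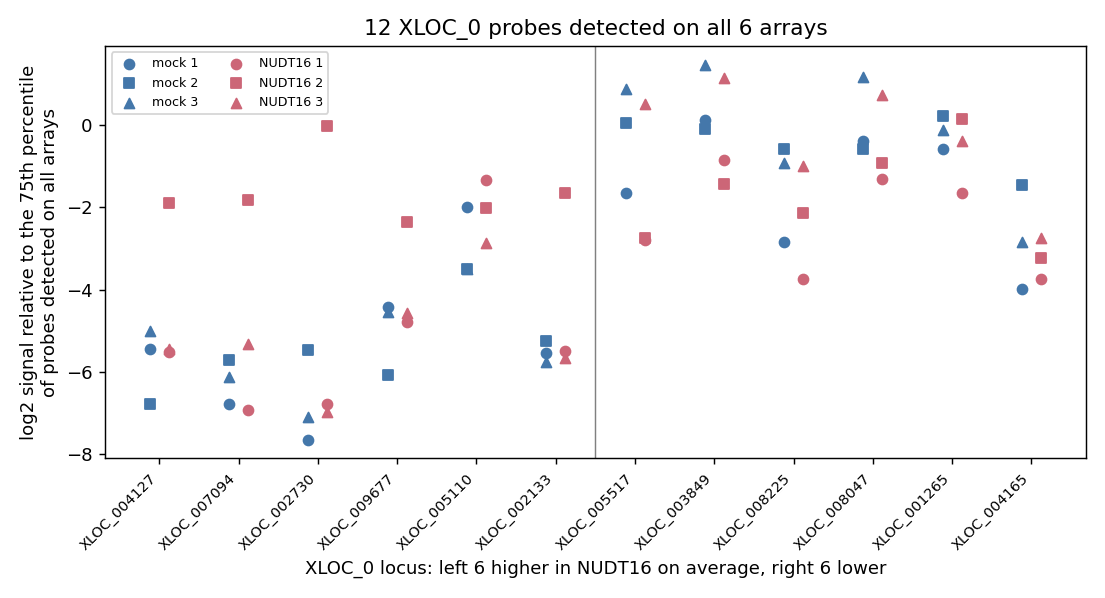
Levels of 12 XLOC_0 probes detected on all 6 arrays (log2 signal relative to the 75th percentile of probes detected on all arrays, vertical axis), 1 point per array, with blue for mock, red for NUDT16 and the marker shape for the replicate number. On the left the NUDT16 replicate 2 square stands apart for 5 of the 6 loci, reaching -0.03 at XLOC_002730, and on the right the blue and red ranges overlap for each locus.

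Groups that did not overlap occurred in 5 of the 674 tested XLOC_0 probes, 4 higher and 1 lower, against 0.31% and 0.281% of all tested probes. The higher ones were XLOC_005113, XLOC_010685, XLOC_011117 and XLOC_012831, with differences of 0.68, 0.83, 0.34 and 0.52. XLOC_010685 (chr13:90129945-90130004) gave -5.26, -5.71 and -5.44 in mock and -5.23, -4.30 and -4.38 in NUDT16. The lower one, XLOC_008467 (chr10:43917191-43917250), gave -5.26, -4.42 and -4.67 in mock and -5.46, -5.77 and -5.30 in NUDT16. All 5 were at background on NUDT16 replicate 2, so that value is not a measured level. Of the 674, 49 were higher and 80 lower in all 3 pairs, both smaller shares than the 15.9% higher and 27.5% lower over all tested probes. For 488 of the 674 the NUDT16 replicate 2 value was at background, so the sign of that pair was not measured.

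One probe was detected on every array of one group and on none of the other. XLOC_002968 (A_21_P0002823, chr3:191286387-191287438, plus strand) gave -7.42, -4.65 and -6.99 in mock and -8.10, -5.59 and -7.62 in NUDT16, where all 3 were at background. Set against the higher of its own value and the lowest detected level on each NUDT16 array, its mock mean was not higher, so no fold is given.

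Replicates 1 and 3 alone, with the replicate number as a block, gave calls that all 6 arrays did not. Of the 674 tested XLOC_0 probes, 44 from 42 loci (6.53%) had a limma adjusted p under 0.05, 1 higher and 43 lower in NUDT16, against 0.0675% higher and 3.38% lower over all 17765 tested probes. With 2 pairs, this fit gave every probe the same standard error, 0.30, so a call here was set by the size of the mean difference, and the smallest called size was 0.95. Of the 44, 31 were at background on NUDT16 replicate 1 and 13 were detected on all 4 arrays. All 44 were at background on NUDT16 replicate 2, so replicate 2 gave no measured level for them, and all 44 passed the filter through the mock group alone, as did 497 of the 674 (6 passed through NUDT16 alone). A probe that passes only where mock is high is more likely to be lower in NUDT16, so the count is a description. For the 31, the lowest detected level of NUDT16 replicate 1 in place of a value below it left 8 with a mean difference of at least the smallest called size and 23 under it. The 43 lower ones had median differences of -1.80 in replicate 1 and -0.67 in replicate 3. The lowest detected signal was 39.7 on NUDT16 replicate 1, the highest of the 6 arrays, and 27.7 on mock replicate 1.

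**Figure D5:**
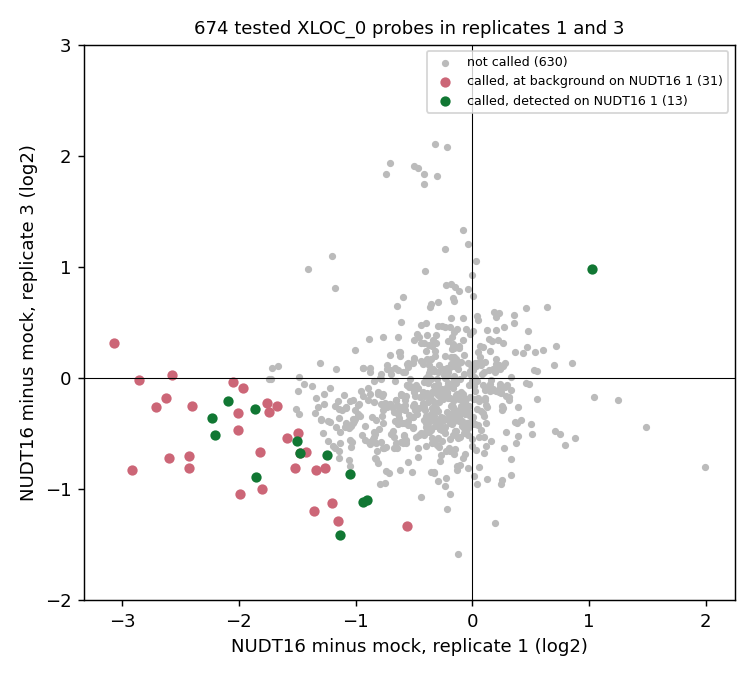
NUDT16 minus mock difference of the 674 tested XLOC_0 probes in replicate 1 (log2, horizontal axis) and in replicate 3 (log2, vertical axis), 1 point per probe, with the 44 probes called in the fit on these 2 replicates in colour. The 31 red points were at background on NUDT16 replicate 1 and reach furthest left, and the 13 green points were detected there.

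The 3 probes with the smallest adjusted p in that fit were all at background on NUDT16 replicate 1. They are shown because they head the list of calls, with G and C in capitals.
XLOC_011691 probe A_21_P0008921: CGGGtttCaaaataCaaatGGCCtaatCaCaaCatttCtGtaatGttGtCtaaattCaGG
XLOC_004244 probe A_21_P0004481: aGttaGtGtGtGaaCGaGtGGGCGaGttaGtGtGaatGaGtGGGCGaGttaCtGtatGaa
XLOC_001674 probe A_21_P0002610: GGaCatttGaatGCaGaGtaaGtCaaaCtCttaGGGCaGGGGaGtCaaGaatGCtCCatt
XLOC_011691 (chr16:31520781-31520840, plus strand) gave -6.93 and -6.36 in mock and -9.85 and -7.19 in NUDT16 replicates 1 and 3. XLOC_004244 (chr5:1043596-1043655, plus strand) gave -5.54 and -3.60 in mock and -8.14 and -4.31 in NUDT16. XLOC_001674 (chr2:132166845-132166904, plus strand) gave -6.97 and -5.08 in mock and -9.40 and -5.89 in NUDT16. With the lowest detected level of NUDT16 replicate 1 in place of a value below it, the mean differences were -0.75, -1.39 and -0.72, so the calls of XLOC_011691 and XLOC_001674 rest on the background value. Over all 6 arrays the limma adjusted p of each was 0.999.

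Among the 13 detected on all 4 arrays, XLOC_010435 (A_21_P0007948, chr13:76587282-76588543, plus strand) gave -4.14 and -4.24 in mock and -6.34 and -4.76 in NUDT16, a difference of -1.36 (limma adjusted p 0.00144). XLOC_009895 (chr12:116716516-116716575, plus strand) gave -6.21 and -4.29 in mock and -7.34 and -5.71 in NUDT16, a difference of -1.27 (limma adjusted p 0.00349). Its difference was -1.13 in replicate 1 and -1.41 in replicate 3. XLOC_013282 (chr19:28268218-28268277, minus strand) gave -4.68 and -1.97 in mock and -6.15 and -2.65 in NUDT16, a difference of -1.08 (limma adjusted p 0.0194). The only higher one, XLOC_008088 (A_21_P0006520, chrX:152865184-152865243, plus strand), gave -5.13 and -6.64 in mock and -4.11 and -5.66 in NUDT16, a difference of 1.003 (limma adjusted p 0.0328).

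The split of these calls depended on the scaling. With the 75th percentile over all probes 11 were higher and 29 lower, with quantile normalization 9 and 24, with the authors' values 10 and 17, with a median shift 4 and 59, with normexp 3 and 54, and with no scaling 0 were called (25 at an unadjusted p under 0.05). Of the 44, 15 were called in at least 6 of the 7 settings. Over all tested probes, 12 higher and 601 lower calls in the main scaling became 160 and 361 with the percentile over all probes. Both replicates had a difference below 0 in 398 of the 674 XLOC_0 probes (59.1%) and above 0 in 60 (8.90%), against 48.3% and 20.5% of all tested probes.

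Messenger RNA probes near a member allowed 4 pairs within 10 kb in which both probes were detected on all 6 arrays. The XLOC_012097 probe lay 2125 bases from a C17orf61 probe on the opposite strand, which gave -0.58, -0.74 and -1.87 in mock and 0.19, -0.24 and -1.74 in NUDT16, a difference of 0.47 (SE 0.70). XLOC_001009 (A_21_P0001741, chr11:1908468-1908527, minus strand) overlapped a probe of LSP1, a leukocyte actin-binding protein, on the opposite strand over 43 bases. It gave -5.50, -5.67 and -5.42 in mock and -5.26, -3.20 and -5.54 in NUDT16, and the LSP1 probe gave -2.70, -4.02 and -3.75 in mock and -2.01, -2.85 and -3.81 in NUDT16. Both had their largest pair difference in replicate 2. On the other arrays XLOC_001009 lay below -3.52, the lowest detected level of NUDT16 replicate 2. It was thus among these pairs only because it was high on that array, so the filter favours this arrangement.

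XLOC_009777 (A_21_P0007566, chr12:57482402-57482461) lay 6701 bases from a probe of NAB2, a corepressor of EGR transcription factors, on the same strand. It gave -5.44, -5.49 and -5.55 in mock and -5.65, -2.24 and -5.60 in NUDT16, where the NAB2 probe gave -0.51, -1.27 and -1.99 in mock and 0.14, -1.03 and -1.39 in NUDT16. XLOC_009777, too, was among the pairs only because it was high on NUDT16 replicate 2. XLOC_006263 (A_21_P0005579, chr7:134855846-134855905) lay 4811 bases from a C7orf49 probe on the opposite strand. It gave -4.47, -2.56 and -3.33 in mock and -4.48, -3.20 and -3.21 in NUDT16, and the C7orf49 probe -1.29, -1.59 and -1.56 in mock and -1.11, -1.60 and -1.51 in NUDT16. The limma adjusted p was over 0.99 for these 8 probes.

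A chosen list of well-known long noncoding RNAs was measured more completely. Its 25 genes, 23 of them with a probe, among them MALAT1, NEAT1, TUG1 and the small nucleolar RNA host genes, had 82 of their probes tested (76.6%), 18 of them from SNHG5 alone, and 53 were detected on all 6 arrays. LINC probes, which are annotated too, were tested in 19.3% of cases. The 82 tested probes of the chosen list had a median difference of -0.12, against 0.15 for the XLOC_0 probes, and 0 of the 82 were called or had an unadjusted p under 0.05.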

How the data were processed

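Cap-immunoprecipitated RNA of 6 MOLT-4 samples (3 mock, 3 NUDT16, grouped and numbered by their titles) was measured on Agilent design 039494 and read with Feature Extraction 10.7.3.1, per the file headers. The deposited processed intensity is background subtracted on a linear scale and not normalized between arrays, per the file headers. The authors' deposited value table holds log2 values whose making is not given in the sources used here, and it served as an alternative.

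Control spots and spots marked as outliers were left out, spots of one probe were averaged, and log2 intensity was shifted by each array's 75th percentile over the probes well above background on all 6 arrays. A probe that was well above background on every array of a group was tested (17765 of 50599) by linear models in limma 3.58.1 (R 4.3.3) with moderated variances, two-sided and without a block, adjusted by Benjamini-Hochberg over all of them at 0.05. A bound for a probe at background used the lowest detected level of each array. The fits were checked on simulated data.

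Members, comparison lists and the rule for naming probes were chosen with earlier results of these data known. The rule took, 1 probe per locus: the 8 of highest mean signal detected on all 6 arrays, the 6 higher and 6 lower of smallest p among the same, those detected in one group only, the 4 loci with most tested probes, 4 loci with tested probes of both strands, any called probe, and 4 pairs with the nearest messenger RNA probe within 10 kb. XLOC_001265, XLOC_012142 and XLOC_012097 as sets of probes, XLOC_002730, the 5 probes whose groups did not overlap and the probes called in replicates 1 and 3 were singled out after their values were seen.

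Each of 3 slides, scanned separately, held 1 mock and 1 NUDT16 array of the same replicate number, so slide, scan and number are the same block and cannot be told apart. After each group's mean was taken off, arrays of replicates 1, 2 and 3 correlated with their partner at 0.84, 0.39 and 0.77 over the 17765 probes (probes are not independent replicates), so the numbers pair the arrays. Strand was read from the order of the coordinates, which equalled RefSeq's strand for 99.5% of 18164 messenger RNA probes. Other settings were 3 other scalings, quantile normalization, normexp (offset 50), the value table, 2 filters, the replicate block, a trended robust prior, replicates 1 and 3 alone, and leaving out each array. An hg19 genome was not used here.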

Additional observations from a re-analysis of the deposited data

How the results depend on the processing

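The count of 0 called XLOC_0 probes was the same under each of the 10 other fits of all 6 arrays and under each of the 6 fits that left out 1 array. It became 44 in replicates 1 and 3 with the replicate block. Under the scalings added for those 2 replicates after the data were seen, it was 40 with the percentile over all probes, 63 with a median shift, 33 with quantile normalization, 57 with normexp, 27 with the authors' value table and 0 with no scaling. The count over all tested probes, 1, was 0 with no scaling, normexp, the value table, a filter on all 6 arrays and no filter, and 613 in replicates 1 and 3 (521 with the percentile over all probes, 989 with a median shift, 2 with no scaling, 497 with quantile normalization, 1346 with normexp and 397 with the value table). Leaving out 1 array gave 0 to 1. The median difference of the tested XLOC_0 probes, 0.15, was -0.85 with no scaling, 1.15 with no filter, 0.64 with normexp, 0.46 with the filter on all 6 arrays and -0.27 in replicates 1 and 3, and from -0.19 to 0.44 with 1 array left out. The median over all tested probes was -1.10 with no scaling, which shifts all differences alike, and 0.46 with normexp, which does not. The replicate block (0 called, smallest adjusted p 0.467) changed no call of an XLOC_0 probe.

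Of the 20 probes named by the rule, 6 changed sign with no scaling, which their size alone decides: XLOC_004774 (-0.79), XLOC_005110 (-0.079), XLOC_006513 (-0.51), XLOC_008183 (-0.56), XLOC_012097 (-0.35) and XLOC_012142 (-0.65). In replicates 1 and 3 alone 6 did: XLOC_004127 (-0.26), XLOC_004165 (0.18), XLOC_004774 (-0.33), XLOC_009677 (-0.18), XLOC_012097 (-0.31) and XLOC_012142 (-0.25). With normexp XLOC_002968 was at 0.38 and XLOC_004165 at 0.011. With 1 array left out the differences ranged from -0.86 to 0.046 for XLOC_001265, -0.064 to 1.94 for XLOC_002133, -0.14 to 3.33 for XLOC_002730, -1.50 to 0.11 for XLOC_002968, -0.65 to 0.16 for XLOC_003181, -1.08 to 0.19 for XLOC_004165, -0.60 to 0.67 for XLOC_004774, -0.40 to 0.094 for XLOC_006775, -0.47 to 1.28 for XLOC_012097 and -0.25 to 0.78 for XLOC_012142. The sign was lost without NUDT16 replicate 2 in 5 of these, without NUDT16 replicate 1 in 3 and without mock replicate 2 in 2. The cause was not tested. Signal over background limits the comparison most on NUDT16 replicate 2, where 2.91% of XLOC_0 probes were detected.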

Other observations

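Before scaling, 2 probes of XLOC_002730 went against most probes of their class on the weakest array. Of the 171 XLOC_0 probes detected on all 6 arrays, 2 had their highest unscaled signal on NUDT16 replicate 2 (1.17%). Both belong to XLOC_002730. Of the 6582 probes of all classes, 14 did (0.213%). A probe dim elsewhere entered these sets only if its scaled level was high on NUDT16 replicate 2. The counts are therefore partly set by the filter and are a description. A_21_P0003242 had signals of 37.2, 61.2 and 34.3 in mock and 69.7, 219 and 55.3 in NUDT16 replicates 1, 2 and 3. A_21_P0003245 had 69.3, 106 and 129 in mock and 66.6, 245 and 156 in NUDT16. By the coordinates of the array files, 3 XLOC_002730 probes lie on the plus strand of a segment of chromosome 3 and XLOC_003181 lies on its minus strand. Whether the signal of these probes came from that segment was not tested. The XLOC_003181 probe A_21_P0003290 had 57845, 42669 and 73073 in mock and 44003, 3887 and 76191 in NUDT16, so on NUDT16 replicate 2 it was at its lowest. Another plus-strand probe of the segment, A_21_P0003243, had 132, 99.2 and 328 in mock and 120, 124 and 235 in NUDT16. Before scaling, then, 2 of these 3 plus-strand probes were at their highest on NUDT16 replicate 2 and the minus-strand probe at its lowest. That was also the array of lowest unscaled signal for 149 of the 171 probes. Relative to the percentile of each array, A_21_P0003290 was at its highest there, 4.12 against 2.51 to 3.98 on the other arrays. The scaled levels therefore do not show the strands moving in opposite directions.

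The probe A_21_P0003244, also named XLOC_002730, is placed by the array files on chromosome 22 among probes of TUG1, a long noncoding RNA, but shares 38 bases with the chromosome 3 probe A_21_P0003245. Its signals were 267, 338 and 536 in mock and 328, 519 and 408 in NUDT16, with NUDT16 replicate 2 the second highest. The TUG1 probe next to it, A_23_P68868, had 3573, 2261 and 11269 in mock and 1776, 32.8 and 13273 in NUDT16, with NUDT16 replicate 2 the lowest.

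XLOC_013994 (A_21_P0010267, minus strand) lies on an unplaced contig that also holds array probes of the ribosomal RNAs RN28S1, RN18S1 and RN5-8S1 on the plus strand. Its signals were 825, 409 and 683 in mock and 926, 347 and 943 in NUDT16, a narrower spread over the arrays than that of the 75th percentile. The ribosomal RNA probes of the contig also spread less than the percentile, so this was not particular to XLOC_013994. Among them RN28S1 probe A_33_P3346552 spread least, from 220895 to 304501, and RN28S1 probe A_33_P3420259 most, from 7006 to 123697.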
